A study of Mus musculus with 8 samples.

Results

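Serum amyloid A genes and formyl peptide receptor genes were followed in CD11b+ brain cells of postnatal mice after bacterial lipopolysaccharide (LPS), a cell wall component that sets off systemic inflammation. The members were Saa1, Saa2, Saa3, Fpr1 and Fpr2, found as every non-control probe whose gene name on the array is one of these symbols. That gave 6 probes of 56599 and 5 genes of 22509 tested, because Fpr2 has 2 probes. The 5 genes were picked because earlier results of the same arrays showed them far higher after LPS, so their LPS values are given as a description, without a test.

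Each of 8 tubes held the cells of 2 brains, with 4 tubes for LPS and 4 for saline. All mice were 7 day old C57BL/6N males, and their cells were taken 24 h after LPS or saline by magnetic sorting on CD11b, a surface integrin of microglia and other myeloid cells. The labels name no altered allele in either group, and the LPS dose and route are not given in the sources used here. RNA of each tube was hybridised to a 1-colour Agilent array, and all 8 arrays lay on 1 slide.

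Serum amyloid A proteins are acute-phase apolipoproteins. In mice the liver makes most of the circulating Saa1 and Saa2 protein during inflammation, whereas Saa3 is known from macrophages and fat tissue. Formyl peptide receptors are G protein-coupled receptors of phagocytes. Fpr1 senses formylated peptides released by bacteria and by damaged mitochondria, and Fpr2 also binds serum amyloid A and annexin A1, so the 2 families hold a ligand and its receptor.

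The 3 Saa genes lie close together on chromosome 7 in the order Saa3, Saa4, Saa1, Saa2, with the pseudogene Saa-ps and the predicted gene Gm31882 among them, and Fpr1 lies next to Fpr2 on chromosome 17. Promoters of the 3 Saa genes are shown because Saa1 and Saa2 share nearly all of theirs while Saa3 does not. Each runs over the 250 bases before the gene's start, 5′ to 3′ on the gene's strand, from RefSeq on build GRCm38.p6. The windows are chr7:46742981-46743230 (minus strand) for Saa1, chr7:46751583-46751832 (plus strand) for Saa2 and chr7:46715677-46715926 (minus strand) for Saa3. Capitals mark matches, on either strand, to TTNNGNAA, a loose form of the C/EBP motif, or to a pair of loose forms of the kappaB motif of NF-kappaB. The first kappaB form is GGG and CC with 5 bases between them, and the second GG and TTTCC with 3 bases between them.
Saa1: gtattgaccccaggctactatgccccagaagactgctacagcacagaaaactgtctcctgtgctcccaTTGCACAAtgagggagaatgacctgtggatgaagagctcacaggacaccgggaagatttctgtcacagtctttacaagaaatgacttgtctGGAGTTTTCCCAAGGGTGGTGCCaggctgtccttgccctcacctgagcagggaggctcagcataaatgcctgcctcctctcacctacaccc
Saa2: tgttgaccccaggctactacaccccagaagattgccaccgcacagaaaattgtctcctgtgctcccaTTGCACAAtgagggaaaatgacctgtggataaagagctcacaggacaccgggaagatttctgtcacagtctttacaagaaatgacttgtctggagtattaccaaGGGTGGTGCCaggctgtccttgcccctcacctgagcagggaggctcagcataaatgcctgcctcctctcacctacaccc
Saa3: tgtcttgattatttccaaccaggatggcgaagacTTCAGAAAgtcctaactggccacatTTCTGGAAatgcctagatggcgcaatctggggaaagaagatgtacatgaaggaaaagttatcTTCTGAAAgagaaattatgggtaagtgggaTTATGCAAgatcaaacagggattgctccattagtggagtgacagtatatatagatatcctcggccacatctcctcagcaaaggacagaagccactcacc
Over an alignment of 251 columns the Saa1 and Saa2 windows were identical at 238, or 94.8%, with 11 substitutions and 2 gaps. Saa1 and Saa3 were identical at 49.1% of aligned columns, within the 43 to 50.2% found over the other pairs among the 5 members and Saa4. The Saa1 window held TTGCACAA at -182 to -175 from the start and a run of overlapping matches, GGAGTTTTCC at -91 to -82 with TTTCCCAA at -86 to -79, followed by GGGTGGTGCC at -78 to -69. In the Saa2 window TTGCACAA and GGGTGGTGCC were present and the second kappaB form had no match. The substitutions T165A and C168A, written as the Saa1 base, its position from 1 at the 5′ end of the Saa1 window and the Saa2 base, fall in that stretch. Saa3 had 4 matches to TTNNGNAA, among them TTATGCAA at -99 to -92, and no match to either kappaB form. Among 32851 promoters of the same table, TTNNGNAA was found in 36.8%, the first kappaB form in 45.8% and the second in 4.63% of windows. The patterns were chosen after these sequences were seen, and a match is a description of letters, not of binding.

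The arrays read these genes through 60-base probes, of which 1 for each of Saa3, Saa1, Fpr1 and Fpr2 is shown because every value below is the signal at such a stretch.
Saa3: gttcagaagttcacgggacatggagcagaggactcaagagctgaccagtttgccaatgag
Saa1: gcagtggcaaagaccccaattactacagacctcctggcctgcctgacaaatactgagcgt
Fpr1: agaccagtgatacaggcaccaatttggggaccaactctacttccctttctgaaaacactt
Fpr2: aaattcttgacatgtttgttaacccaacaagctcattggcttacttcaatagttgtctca
On build mm9, per the array files, they lie at chr7:53967559-53967618 (minus strand) for Saa3, chr7:53996070-53996129 (minus strand) for Saa1, chr17:18013609-18013668 (minus strand) for Fpr1 and chr17:18030540-18030599 (plus strand) for Fpr2. The Fpr2 probe shown is the dimmer of its 2. The second Fpr2 probe, the brighter one that stands for the gene below, lies at chr17:18030798-18030857. The Saa2 probe lies at chr7:54009535-54009594, and both are on the plus strand. The files tie the Saa2 probe to 4 Ensembl transcripts and to no RefSeq accession, and they do not say in which exon any probe lies. Laid against each other without gaps, the Saa1 and Saa2 probes shared at most 18 of 60 bases in place and no run longer than 5. Whether a probe of one Saa gene also binds the transcript of another was not tested, so the split of signal between Saa1 and Saa2 is uncertain.

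Processed signals, the scanner's background-subtracted intensities, are given below for LPS tubes 1 to 4 and then saline tubes 1 to 4. Differences are LPS minus saline in log2 signal after each array was set to its own 75th percentile, and each carries the standard error (SE) of the fit. Levels of different probes are not compared with each other, since probes differ in how brightly they bind.

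All 5 genes were higher in every LPS tube than in every saline tube. The same held for 25.8% of the 22509 genes tested, and since the genes were picked on this contrast nothing is read from their count. At differences over 3 log2 units the share of genes was 0.218%.

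Saa3, the Saa gene of macrophages, had processed signals of 134000, 135000, 120000 and 150000 in LPS tubes, against 22.9, 31.7, 50.7 and 22 in saline tubes. Its scaled log2 level averaged 9.69 ± 0.20 in LPS tubes and -2.58 ± 0.47 in saline tubes (SD, n = 4 each). The difference of 12.27 ± 0.23 (SE), or 4930-fold, ranked 1 of 22509 genes. The lowest LPS tube stood 11.39 log2 units above the highest saline tube, which was saline 3. Saa3 was well above background on all 8 arrays, so its saline level was a measured one.

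Saa1, a circulating acute-phase form, gave 16500, 15900, 12900 and 19000 in LPS tubes, against 62.9, 65.3, 72.8 and 64.2 in saline tubes. The scaled level was 6.61 ± 0.31 in LPS tubes and -1.44 ± 0.05 in saline tubes (SD, n = 4 each), a difference of 8.05 ± 0.15 (SE) or 265-fold that ranked 3. Saline tubes lay close together, and the lowest LPS tube was 7.55 log2 units above the highest of them.

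Saa2, the neighbour of Saa1 and like it an acute-phase form, read 177, 162, 148 and 180 in LPS tubes, against 2.22, 1.13, 1.16 and 1.13 in saline tubes. No saline array had it well above background, so only a bound can be given. With the scanner's own background the bound was 41.1-fold higher in LPS tubes, or 5.36 on the log2 scale. The bound depends on that background: it was 4.77 on the log2 scale after normexp correction with no offset and 1.94 with an offset of 50. For the bound, each saline array was given the dimmest signal it still measured well above background, or its own reading if brighter, and the LPS mean was set against these. The dimmest such signal is the lowest floor of this kind, and a higher floor would give a smaller bound. The measured scaled means behind it were 0.03 ± 0.22 in LPS tubes and -7.06 ± 0.55 in saline tubes (SD, n = 4 each). Saa2 passed the filter, at least 4 of 8 arrays well above background, through its LPS arrays alone.

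Fpr1, the receptor for formylated peptides, had signals of 1450, 1360, 1090 and 1920 in LPS tubes, against 124, 122, 128 and 128 in saline tubes. Its scaled level was 3.13 ± 0.40 in LPS tubes and -0.52 ± 0.09 in saline tubes (SD, n = 4 each). It was 3.65 ± 0.18 (SE) log2 units or 12.5-fold higher in LPS tubes and ranked 24, with a gap of 3.06 between the lowest LPS and the highest saline tube.

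Fpr2, the receptor that takes serum amyloid A as a ligand, was read by 2 probes. The brighter one gave 2720, 2790, 2400 and 4370 in LPS tubes, against 387, 412, 332 and 428 in saline tubes. Its difference was 3.08 ± 0.22 (SE) or 8.48-fold, rank 45, with scaled means of 4.20 ± 0.42 in LPS tubes and 1.11 ± 0.26 in saline tubes (SD, n = 4 each). The other gave 661, 713, 628 and 1140 in LPS tubes, against 101, 112, 94.2 and 114 in saline tubes. That was a difference of 3.002 ± 0.21 or 8.01-fold, so the 2 probes differed by less than the SE of either. Both receptors were well above background on all 8 arrays, in saline tubes too.

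**Figure D1:**
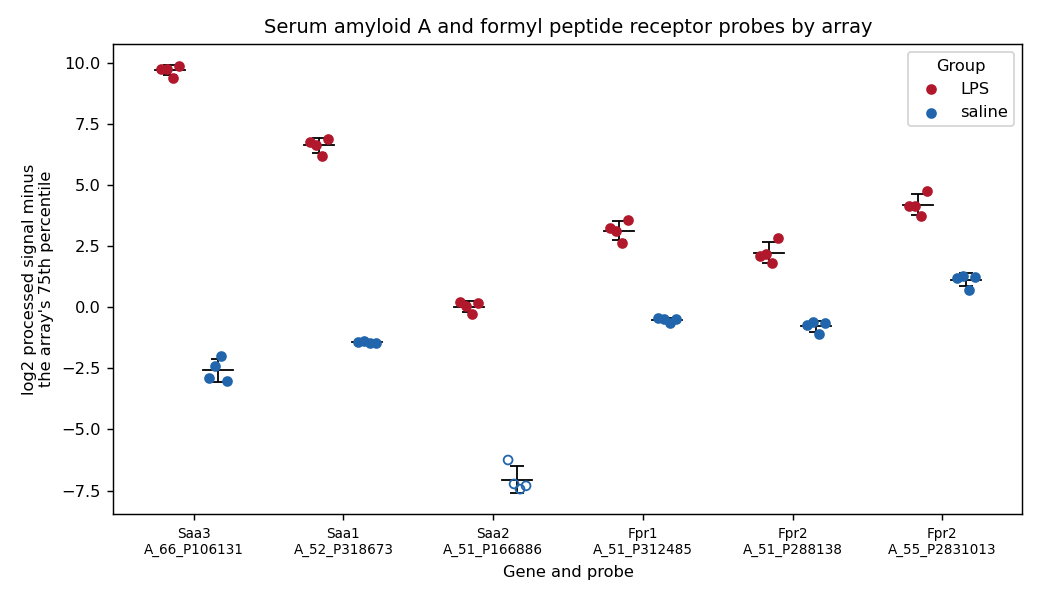
Scaled log2 signal (log2 processed signal minus the array's 75th percentile) of each member probe, with LPS tubes in red left of saline tubes in blue. Points are arrays, hollow where no array of the group had the probe well above background, and black lines are the mean ± SD (n = 4). LPS and saline tubes do not overlap for any probe, and Saa3 has the widest separation at 12.27 log2 units.

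The LPS tubes kept an order among themselves. LPS 3 was the lowest LPS tube for 6 of 6 member probes and LPS 4 the highest for 5 of 6, the exception being Saa2. LPS 3 was also lowest for 90.9% of the 6267 genes called higher in LPS, whereas LPS 4 was highest for 25.3% of them. Without LPS 3 the differences were 12.36 for Saa3, 8.20 for Saa1, 3.82 for Fpr1 and 3.23 for Fpr2. On slide row 1, which held LPS 2 and 4 and saline 1 and 3, the Fpr2 difference was 3.49, and on row 2, with the other arrays, it was 2.67.

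Relatives from the same families stayed at or near background. Saa4, a constitutive liver form, read 0.979 to 1 in LPS tubes and 0.965 to 1.01 in saline tubes, and was well above background on none of the 8 arrays. The same was true of Fpr-rs3, Fpr-rs4, Fpr-rs6 and Fpr-rs7, genes of the mouse receptor cluster of which several are known from vomeronasal neurons. Fpr3 read 3.18 to 4.17 in LPS tubes and 2.88 to 6.69 in saline tubes, and was well above background on 1 saline array. None of these 6 genes passed the filter, so none was tested.

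**Figure D2:**
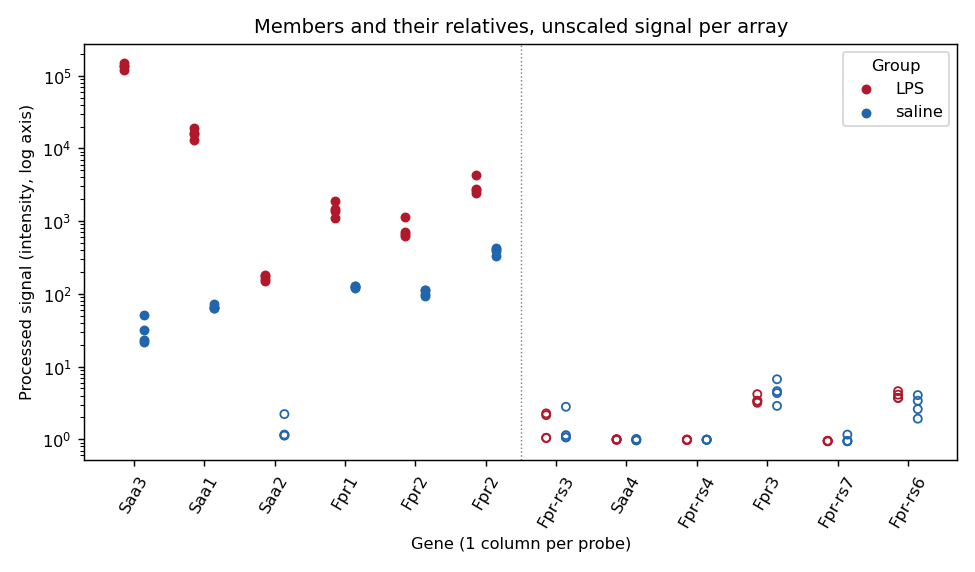
Unscaled processed signal (intensity, log axis) per array of the 6 member probes, left of the dotted line, and of 6 relatives, right of it, with LPS tubes in red left of saline tubes in blue. Symbols are filled where the probe was well above background on all 4 arrays of the group. Every relative reads under 7 in both groups, while the member probes read 148 or more in every LPS tube.

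Genes around these families were counted in lists, with the test run across all 22509 genes in limma and a threshold of 0.05 on the Benjamini-Hochberg adjusted p. Of all genes 27.8% were called higher in LPS tubes and 21.5% lower, and the median difference was 0.022. The p-values measure the spread between these tubes. In sorted bulk samples, fewer cells of a type and less RNA per cell cannot be told apart.

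Receptors other than Fpr2 that bind serum amyloid A or work beside such receptors were mostly higher. Of 12 measured, 7 rose, 3 fell and 2 did not pass the test, with a median difference of 0.461. Olr1, a scavenger receptor for oxidised lipoprotein, rose by 1.13 ± 0.24 (SE, adjusted p = 0.00559). Tlr2, a toll-like receptor, rose by 0.97 ± 0.11 (adjusted p = 0.000748) and its partner Tlr1 by 0.85 ± 0.13 (adjusted p = 0.00156). Among those that fell, the scavenger receptor Cd36 had a difference of -0.47 ± 0.10 (adjusted p = 0.0048), the Tlr4 co-receptor Ly96 -0.39 ± 0.11 (adjusted p = 0.0204) and the ATP-gated channel P2rx7 -0.38 ± 0.07 (adjusted p = 0.00312). These 3 falls did not pass the test with arrays scaled to their medians, nor did that of Ly96 without LPS 1, LPS 4, saline 3 or saline 4 (-0.39 to -0.33), with the mean of its probes (-0.167) or with the array's median signal as a covariate (-0.29). The rise of Olr1 was not called with that covariate, at 1.02.

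The list of cytokines, receptors and factors known to induce Saa genes also held a feedback inhibitor, Socs3. It split in both directions, with 10 of 21 higher, Socs3 among them, 4 lower, 7 not past the test and a median of 0.262. Il1b, an acute-phase inducer, rose by 1.80 ± 0.16 (adjusted p = 0.000319), Il1a by 1.01 ± 0.14 (adjusted p = 0.00113), and Socs3, the feedback inhibitor of the IL-6 pathway, by 1.64 ± 0.12 (adjusted p = 0.000183). Il6 itself was lower, at -0.77 ± 0.16 (adjusted p = 0.00504), as was its signalling receptor Il6st at -0.71 ± 0.08 (adjusted p = 0.000826). The factors that bind the C/EBP motif differed: Cebpa fell, at -0.67 ± 0.08 (adjusted p = 0.000792), and Cebpb, named after its value was seen, rose by 0.87 ± 0.11 (adjusted p = 0.000974).

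Ligands of the formyl peptide receptors and the enzymes behind their lipid ligands came to 9 measured of 11 listed, with 4 higher, 1 lower, 4 not past the test and a median of 0.338. Alox5, which starts leukotriene and lipoxin synthesis, rose by 0.77 ± 0.10 (adjusted p = 0.000976), its activating protein Alox5ap by 0.74 ± 0.12 (adjusted p = 0.00225), and App, the precursor of amyloid beta, by 0.34 ± 0.08 (adjusted p = 0.00695). The rise of App was not called after quantile normalization, where it was 0.03. Alox12, another lipoxygenase, fell, at -0.97 ± 0.31 (adjusted p = 0.0309), a call lost when LPS 1, LPS 2, LPS 4, saline 1, saline 3 or saline 4 was left out (-1.01 to -0.74) and with no filter on dim probes (adjusted p = 0.0549). It was also lost, with a much smaller difference, under normexp with an offset of 50 (-0.124) and with the array's median signal as a covariate (-0.32). Anxa1, the anti-inflammatory protein ligand of Fpr2 and named after its value was seen, had a difference of 0.30 ± 0.19 (adjusted p = 0.223). It was called higher without LPS 1 (0.47, adjusted p = 0.0449), under median scaling (0.52, adjusted p = 0.0279) and with the covariate (0.64, adjusted p = 0.0452).

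Signalling genes downstream of the receptors had 15 of 25 higher, 3 lower and 7 not past the test, with a median of 0.318. Fgr, a Src-family kinase of myeloid cells, rose by 1.83 ± 0.16 (adjusted p = 0.000335). Cybb, the catalytic subunit of the phagocyte NADPH oxidase, rose by 1.81 ± 0.19 (adjusted p = 0.000605), and Ncf4, a cytosolic subunit of the same oxidase, by 1.16 ± 0.14 (adjusted p = 0.000881). The G protein subunit Gng2 fell, at -0.46 ± 0.09 (adjusted p = 0.00453), as did the kinase subunit Pik3cg at -0.38 ± 0.10 (adjusted p = 0.0155) and the phospholipase Plcb2 at -0.23 ± 0.07 (adjusted p = 0.0232). With arrays scaled to their medians these 3 falls did not pass the test, nor did that of Plcb2 without LPS 2, LPS 4, saline 2 or saline 4 (-0.23 to -0.20) or with the median-signal covariate (-0.22). Gng2 also lost its call with the mean of its probes, where its difference was -0.18 (adjusted p = 0.11).

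**Figure D3:**
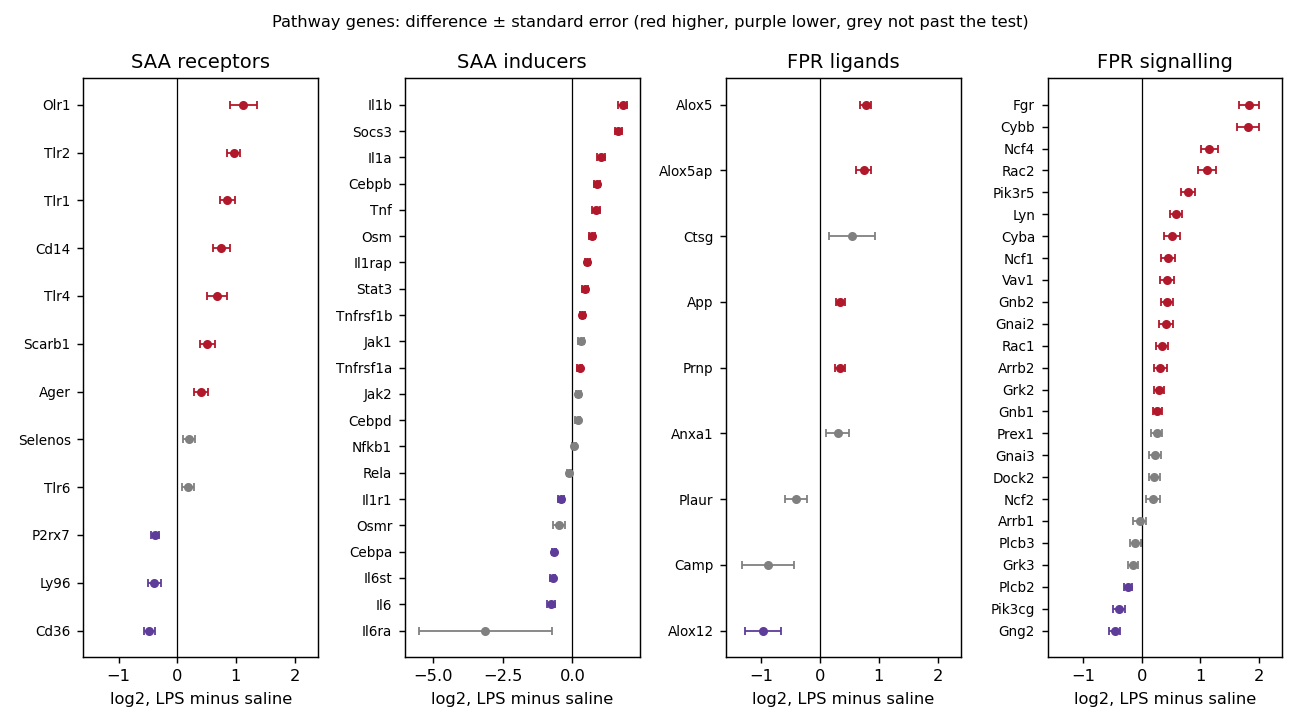
Difference in log2 signal, LPS minus saline, of each tested gene of the 4 lists, with bars for the SE of the fit and red for higher, purple for lower and grey for not past the test. The axis of the inducers runs wider than the others because of Il6ra, at -3.12. Fgr and Cybb lead the signalling genes at 1.83 and 1.81.

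The genes whose profile over the 8 arrays lay nearest to each member, by the root mean square difference in log2 after centring each gene on its mean, were named by rule. For Fpr1 they were Il12rb1 at 0.157, Gbp2 at 0.171 and Oasl1 at 0.177. For Fpr2 they were the unnamed transcript NAP070743-1 at 0.138, Gm9706 at 0.166 and Gbp2 at 0.173. Saa1 lay nearest to Cxcl13 at 0.568, Saa2 at 0.587 and Ccl5 at 0.886, and Saa2 nearest to Ccl5 at 0.443, Saa1 at 0.587 and Acod1 at 0.692. Profiles were not scaled, so the distance depends on the size of the LPS difference as well as on the pattern among tubes. Saa3 had the largest difference of all genes, 12.27, and for that reason no gene could lie close to it. Cxcl13, with a difference of 8.18, came first at 2.10, then Saa1 at 2.13 and Saa2 at 2.65. Cxcl13, NAP070743-1 and Saa2 were well above background on none of the saline arrays, so their distances rest on signals without a measured level there.

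Markers of cell types that make these transcripts elsewhere were read beside them. The shares to set beside each count are 27.8% of all genes called higher and 21.5% called lower. Of 6 monocyte markers 5 rose, among them Ly6c2 at 2.11 ± 0.21 (SE, adjusted p = 0.000427) and Plac8 at 2.06 ± 0.17 (adjusted p = 0.000276). The summed monocyte signal, in multiples of each array's 75th percentile, was 54.2, 60.8, 44.2 and 78.5 in LPS tubes 1 to 4, and 12.4 to 16.6 in saline tubes. LPS 4 was the highest LPS tube and LPS 3 the lowest, as for 5 of the 6 member probes, of which 2 read Fpr2. Of all genes called higher, LPS 3 was lowest for 90.9% and LPS 4 highest for 25.3%. An order of 4 tubes is a description, and its cause was not tested. Of 12 neutrophil markers 3 rose, near the share of all genes called higher, and none fell. S100a8 rose by 1.59 ± 0.29 (adjusted p = 0.00336) and S100a9 by 1.38 ± 0.29 (adjusted p = 0.00619). Cxcr2, the neutrophil chemokine receptor, named after its value was seen, rose by 1.10 ± 0.21 (adjusted p = 0.00387). The granule genes Camp and Ltf had differences of -0.89 ± 0.44 (adjusted p = 0.126) and -0.14 ± 0.48 (adjusted p = 0.814), the sign of Ltf turning under other settings and Camp called lower without LPS 3 (-1.19, adjusted p = 0.0413). The median difference of the 12 neutrophil markers was 0.042. Summed neutrophil signal was 171, 246, 297 and 302 in LPS tubes 1 to 4, and 73.5 to 171 in saline tubes. Among LPS tubes LPS 1 was the lowest and LPS 3 second to LPS 4. Most of the sum came from S100a9 and S100a8, with mean LPS signals of 29300 and 10300, against 448 for Camp. Ly6g was well above background on 4 LPS and 2 saline arrays. No defining marker of either type was below background on all arrays.

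Markers of microglia, the myeloid cells that CD11b sorting of brain mainly draws, were high in both groups, with summed signals of 1540 to 1720 in LPS tubes and 1520 to 1800 in saline tubes. Of 9, 1 rose and 4 fell. The brightest were Csf1r and Cx3cr1, with mean LPS signals of 92500 and 84500, and neither was called, so the sums say little of dimmer markers. The largest falls, named after their values were seen, were P2ry12 at -1.55 ± 0.20 (adjusted p = 0.000977) and Gpr34 at -1.06 ± 0.15 (adjusted p = 0.0012). The marker that rose was Itgam, at 0.66 ± 0.10 (adjusted p = 0.00176). Hepatocyte markers were read because the liver is the main source of Saa1 and Saa2, and 5 of 10, Apoa1, Fgb, Fga, Ahsg and Cyp2e1, stood well above background on none of the 8 arrays. Of the other 5 none passed the test as higher, and Alb, the albumin gene, fell, at -0.71 ± 0.13 (adjusted p = 0.00375), a call lost under median scaling, at -0.49, and under normexp with an offset of 50, at -0.158. Apob, an apolipoprotein gene, had a difference of 0.75 ± 0.28 (adjusted p = 0.0549) and was called higher without LPS 3 (0.99, adjusted p = 0.00749), under median scaling (0.97, adjusted p = 0.0314), under normexp with an offset of 50 (0.42, adjusted p = 0.0493), with slide column as a block (adjusted p = 0.0277) and among probes well above background on all 8 arrays (adjusted p = 0.0437). Apoa2, another apolipoprotein gene, was well above background on all 8 arrays, with mean signals of 278 in LPS tubes and 331 in saline tubes and a difference of -0.12 ± 0.07 (adjusted p = 0.202) whose sign turned under median scaling and with the mean of its probes. It was called lower after quantile normalization (-0.188, adjusted p = 0.0249) and with the percentile taken over probes detected on all arrays (-0.273, adjusted p = 0.00856). The sums of the list were 2.25 to 2.71 in LPS tubes and 2.33 to 2.7 in saline tubes.

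Other lists were read as well, beside the 27.8% of all genes called higher and 21.5% called lower. Of 6 markers of border macrophages 3 fell and none rose, with sums of 309 to 428 in LPS tubes and 470 to 599 in saline tubes. Astrocyte markers fell in 7 of 8, with sums of 13 to 18.3 in LPS tubes and 23.9 to 30.1 in saline tubes, and endothelial markers in 5 of 7, with 12.4 to 15.8 in LPS tubes and 17.1 to 23.7 in saline tubes. Of 4 lymphocyte markers measured of 6 listed 3 rose, with sums of 2.76 to 3.47 in LPS tubes and 1.4 to 2.28 in saline tubes. None of 6 choroid plexus markers passed the test, and sums were 57.1 to 290 in LPS tubes and 118 to 317 in saline tubes. The part of these cells in the member values was not tested.

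**Figure D4:**
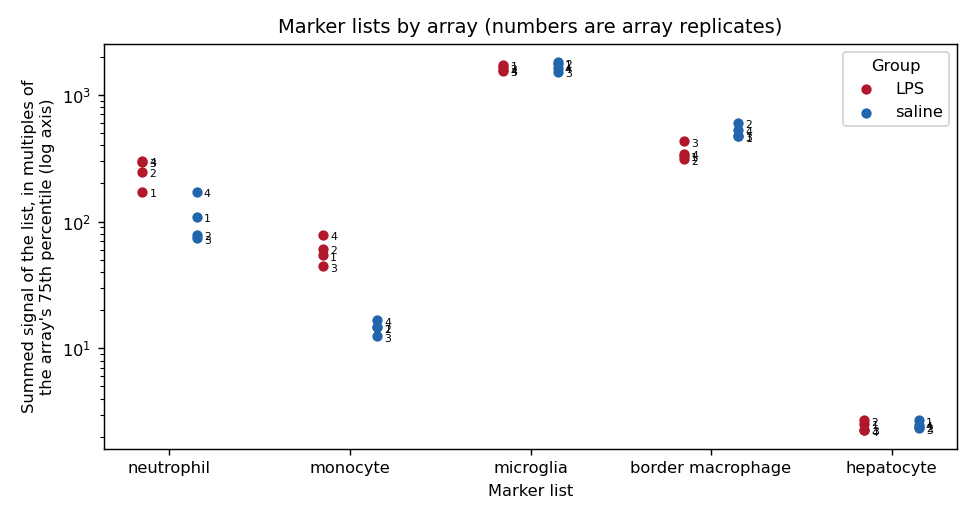
Summed signal of 5 marker lists on each array, in multiples of the array's 75th percentile (log axis), with LPS tubes in red left of saline tubes in blue and the replicate number beside each point. Monocyte sums of LPS tubes, 44.2 to 78.5, lie above those of saline tubes, 12.4 to 16.6, while hepatocyte sums overlap.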

How the data were processed

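RNA of each tube (50 ng, per the labels) was labelled with Cy3. The deposited intensity values came from Agilent Feature Extraction 12.0.3.1, per the file headers, as processed signals with background subtracted but arrays not scaled. Log2 values in a table the authors deposited correlated at 0.9993 to 0.9997 with the scanner values once these were centred by probe. The table's column medians were -0.0715 to 0.0763, and its scaling and centring are not stated in the sources used here.

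Control and outlier spots were left out, together with 6 probes lacking a usable spot somewhere, and no spot was saturated. A probe was kept if 4 or more of 8 arrays had it well above background, log2 signals were set to each array's 75th percentile, and each gene was read by its brightest probe. Of 56599 probes, 35402 were named through a RefSeq accession, 9123 by symbol, 25 by synonym, and 12049 kept the file's name. Probes well above background were 58.57 to 63.23% on LPS arrays and 61.91 to 65.96% on saline arrays, and 4 arrays a group limit the precision. The comparison of groups used limma 3.58.1 (lmFit, eBayes) under R 4.3.3, tested on simulated data.

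The members, gene lists and tests were chosen with earlier results of these data known. Named were the members and 6 relatives, up to 3 risen and 3 fallen genes of each list, the 3 genes nearest each member, and the brightest markers. Outside this rule stand Cebpb, Anxa1, Il6ra, Cxcr2, Ly6g, P2ry12, Gpr34, Itgam and the hepatocyte markers below background. A gene of the signalling list is not reported here and was left out of its counts. Alternatives covered scaling, background, filters, probes, slide position, the authors' own values and each array left out.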

Additional observations from a re-analysis of the deposited data

Results flagged for a closer look

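In 114 groups of 4 arrays, drawn from the member probes, the relatives and the named genes, 1 array stood apart in 9, with a gap to its nearest neighbour past Dixon's 95% criterion. Chance alone marks about 5% of groups. Values are scaled log2 signals.

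Among the members, the brighter Fpr2 probe read 0.72 on saline 3 and 1.20 to 1.28 on the other saline arrays, a gap of 0.844 of the range. Saline 3 also stood apart in Cxcl13, at -5.97 against -7.38 to -7.27 (0.928), and in the relative Fpr-rs3, at -6.17 against -7.39 to -7.21 (0.851), both below background there. LPS 3 was low for Socs3, at 6.72 against 7.20 to 7.24 (0.919), for Tlr1, at 3.17 against 3.59 to 3.64 (0.878), and for Ncf4, at 5.01 against 5.49 to 5.58 (0.836). Saline 2 was high for P2rx7, at 4.85 against 4.72 to 4.74 (0.847). LPS 2 was high for Apoa2, at 0.82 against 0.74 to 0.75 (0.87).

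The widest gap was in Il6ra, the IL-6 receptor, named after its values were seen. Its brighter probe read -4.86 on LPS 1 and 6.13 to 6.31 on the other LPS arrays (0.985), with 6.42 to 6.67 on saline arrays. The second probe read 0.25 to 0.44 on LPS arrays and 0.60 to 0.92 on saline arrays, with LPS 1 in the middle at 0.32. With LPS 1 the difference was -3.12 ± 2.38 (SE, adjusted p = 0.297), and without it -0.35 (adjusted p = 0.0247, limma).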

How the results depend on the processing

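The 5 members kept their direction under every alternative that gave a value. They were picked on this contrast and the gaps between groups are wide, so nothing is read from that. Slide rows and columns each held as many LPS as saline arrays, so these blocks could not move a difference. The bound of Saa2 was not recomputed for blocks, the covariate, the mean of probes or the authors' values. Members have no separate values for the 2 filter alternatives, and the one that asks for all 8 arrays well above background would remove Saa2. With arrays scaled to their medians the log2 bound of Saa2 was 5.58, and the listed pathway genes called lower came to 4 in place of 11, with 36 called higher in the chosen setting. Quantile normalization gave 17 lower and 25 higher. With the array's median signal as a covariate 11 were lower and 24 higher, and 7475 genes were called in all. Of all calls 72.8% were higher under median scaling and 40.1% with the percentile taken over probes that all arrays held well above background, against 56.4% in the chosen setting, with median differences of 0.237, -0.133 and 0.022. Normexp background with an offset of 50 gave 10.63 for Saa3, 7.21 for Saa1, a bound of 1.94 for Saa2 and 3.09 for Fpr1, and with no offset a bound of 4.77 for Saa2. The array's median signal as a covariate gave 7.82 for Saa1. Fpr2 was 3.49 on slide row 1 and 2.67 on row 2. Leaving out each array in turn gave 12.12 to 12.46 for Saa3, 7.96 to 8.20 for Saa1, 5.31 to 5.46 for the Saa2 bound, 3.50 to 3.82 for Fpr1 and 2.90 to 3.23 for Fpr2. Calls then numbered 8730 to 13262, with 28 to 42 listed genes higher and 8 to 12 lower. Of 943 values of 45 named genes, 890 kept direction and call, 31 lost the call, 13 gained it and 9 changed sign. Ltf turned to 0.071 (median scaling), 0.49 (covariate), 0.177 (without LPS 1), 0.13 (without saline 4) and 0.003 (without LPS 4), within -0.524 to 0.177 over the left-out arrays, Apoa2 to 0.097 (median scaling) and 0.034 (mean of probes), and Tat to 0.015 (quantile) and 0.048 (normexp, offset of 50). For all of these the cause was not tested. The labels give the tubes no replicate numbers and state no pairing, so the chosen setting used none. Each slide column held 1 LPS and 1 saline array, and with column as a block, a position and not a stated pairing, 13620 genes were called against 11104.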

Other observations

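Around the Saa genes on chromosome 7, 6 flanking genes were tested, of which 4 were called higher and none lower, with differences of -0.68 to 0.76 in log2 signal. Of 6 flanking Fpr1 and Fpr2 on chromosome 17, 2 were higher and 1 lower, with differences of -0.39 to 0.43. Across all genes tested, 27.8% were called higher and 21.5% lower.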
